A study of Mus musculus with 13 samples.

Results

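Interferon-stimulated genes are the genes that cells switch on after interferon binds its receptor, and 39 of them were chosen by symbol from a list. Of these, 37 were rows of the deposited gene tables, out of 20270 genes, and the antiviral GTPases Mx1 and Mx2 were not analysed here. All 37 passed the filter on low counts. They were followed in bulk RNA sequencing of the lower right lung lobe. Control mice (n = 4) were wild type C57BL/6J given the saline vehicle, and the wild type mice were bought as males of 13 weeks. WT bleomycin mice (n = 5) were the same strain, 14 days after a single oropharyngeal dose of bleomycin, a DNA-damaging drug that scars the lung. CB1R KO bleomycin mice (n = 4) carried the global Cnr1-/- deletion of the cannabinoid receptor on C57BL/6J and were taken 14 days after the same treatment; their age and sex are not given in the sources used here. Knockout mice without bleomycin were not analysed here, so the effect of genotype was seen in treated lungs only. Each library is 1 mouse, named below by the number in its label.

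Type I interferons bind a receptor that activates the kinases JAK1 and TYK2, which phosphorylate STAT proteins. A complex that holds STAT2 and IRF9 then binds interferon-stimulated response elements in promoters. Interferon-gamma acts through gamma-activated sequences instead, and it strongly induces the GBP and IRG GTPases, which attack the vacuoles of intracellular pathogens. Many members detect or block viral RNA, and several feed back on the pathway.

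The library totals lay between 14615904 and 16662580 estimated counts in 12 libraries, while CB1R KO mouse 11 had 53463884. The members held between 0.148% and 0.226% of the counts of a library. Cnr1, the deleted gene, had 27 to 69 counts in control and 50 to 110 in WT bleomycin, not scaled for depth. In the libraries labelled CB1R KO it had 188 in mouse 11, the deepest library, and 41 to 86 in the others. These counts therefore do not check the genotype. Lung markers were abundant in all libraries: the summed level of 8 type II cell genes ranged from 12549 to 23029 CPM (counts scaled to the total of the library). In a bulk sample, fewer cells of a type and less RNA per cell cannot be told apart.

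Sequences upstream of the start sites are shown for some members that rose, fell or did not pass the test. Only members that carry the same short element were picked for this, and its share over all members with a window is given below. RefSeq (GRCm38.p6) gave windows of 300 bases, 250 before and 50 after the start, for 29 of the 37 members. Stretches of 80 bases follow, 5′ to 3′ on the gene's strand, with each pair of GAAA separated by any 2 bases, or its reverse complement, in capitals. Such a pair is the core of an interferon-stimulated response element.
Isg15 (chr4:156200846-156200925, minus strand): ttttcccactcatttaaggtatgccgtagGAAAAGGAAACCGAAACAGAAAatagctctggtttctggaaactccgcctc
Ifit1 (chr19:34640759-34640838, plus strand): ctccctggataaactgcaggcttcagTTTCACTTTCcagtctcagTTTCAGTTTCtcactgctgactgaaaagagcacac
Oas1a (chr5:120907526-120907605, minus strand): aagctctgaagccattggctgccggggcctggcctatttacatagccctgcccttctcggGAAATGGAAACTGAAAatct
Rsad2 (chr12:26456528-26456607, minus strand): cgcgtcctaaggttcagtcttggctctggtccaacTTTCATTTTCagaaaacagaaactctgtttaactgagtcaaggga
Ifit3 (chr19:34583355-34583434, plus strand): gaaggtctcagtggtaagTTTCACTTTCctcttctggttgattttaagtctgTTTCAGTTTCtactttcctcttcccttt
Stat2 (chr10:128270248-128270327, plus strand): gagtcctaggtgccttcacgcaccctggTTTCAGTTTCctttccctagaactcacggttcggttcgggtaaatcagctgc
Gbp2 (chr3:142620569-142620648, plus strand): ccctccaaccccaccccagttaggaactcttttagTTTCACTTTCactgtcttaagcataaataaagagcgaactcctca
Gbp7 (chr3:142530248-142530327, plus strand): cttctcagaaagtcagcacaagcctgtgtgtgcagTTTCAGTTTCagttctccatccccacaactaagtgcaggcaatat

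The first 4 genes rose after bleomycin in wild type lungs, Ifit3 and Stat2 did not pass the test, and Gbp2 and Gbp7 fell. In Isg15, 3 overlapping matches form a single block. Ifit1 and Ifit3 each hold 2 separate matches. The GAAA pair on either strand was present in 19 of the 29 members with a window, against 3.44% of all 32851 windows and 3.99% of gene symbols with any window, the count made like that of the members. By outcome in WT bleomycin against control, it was present in 9 of 12 members that rose, in both that fell and in 8 of 15 that did not pass the test. TTCNNNGAA on either strand, where N is any base, is the core of a gamma-activated sequence, and it was found in 9 of the 29 members in 8.3% of all windows and in 9.55% of gene symbols, and in 2 windows of members it overlapped a match to the GAAA pair. A match in these letters is a description of the sequence and not a measured binding site.

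The comparison of WT bleomycin with control asked which members differ in the injured lung. In WT bleomycin lungs 19 of the 37 members rose, 2 fell and 16 did not pass the test (edgeR quasi-likelihood test, Benjamini-Hochberg adjusted p under 0.05 over all 15315 genes tested). The share that rose was 51.4%, beside 25% of all genes tested, and the share that fell was 5.41%, beside 23.9%. The median log2 fold change was 0.36 over the members and -0.01 over all genes. The 5 WT bleomycin libraries all lay above the 4 controls for 16 members, where 21.5% of all genes did so, and all below for 1 member, where 18.8% did. Without WT mouse 2, which stood highest for most members, 17 rose and 4 fell.

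**Figure D1:**
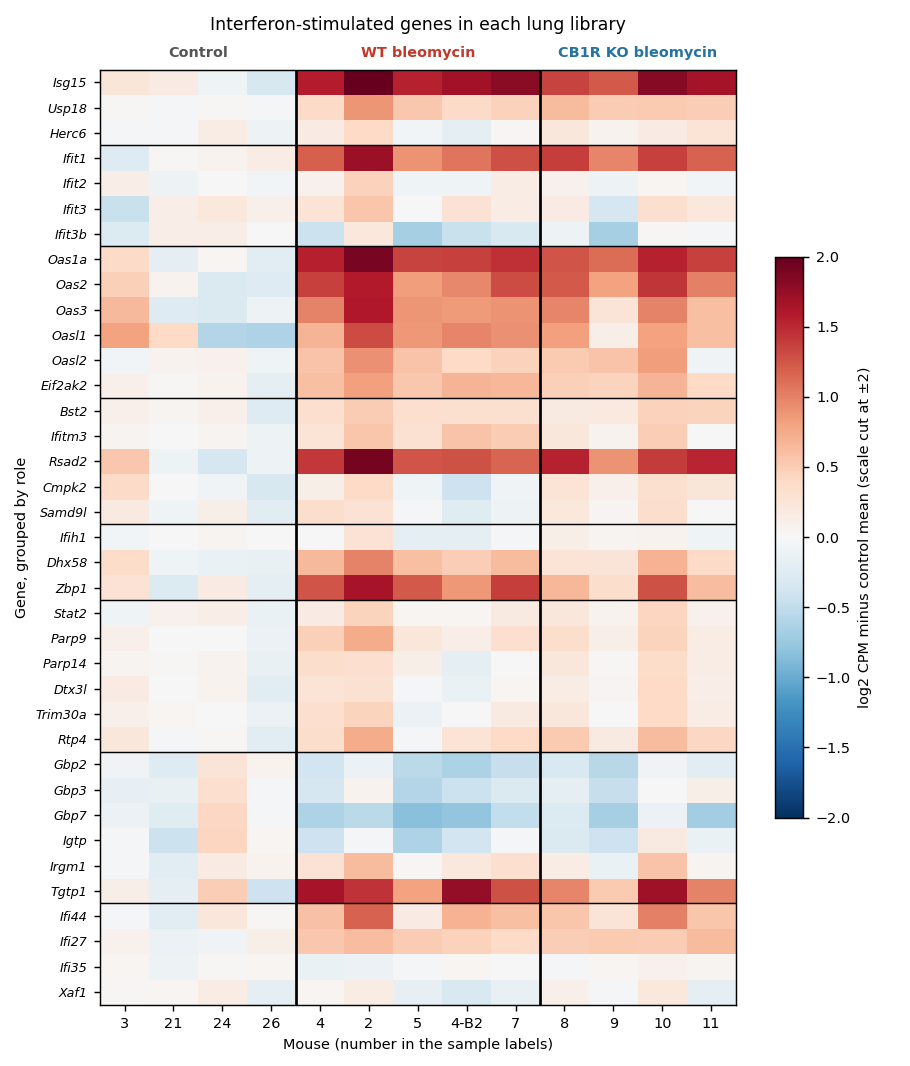
Heat map of the 37 members (rows, in blocks by role) in the 13 libraries (columns, by mouse), coloured by log2 CPM minus the control mean, with colours cut at 2 on either side. Isg15, Ifit1, Oas1a and Rsad2 are red in all 9 bleomycin libraries, Gbp7 is blue, and WT mouse 2 and CB1R KO mouse 10 are the darkest columns of their groups for most members.

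Isg15 encodes a ubiquitin-like protein that is joined to other proteins. Its level was 8.14, 7.75, 6.47 and 5.48 CPM in controls 3, 21, 24 and 26, and 20.5, 30.5, 20.1, 22.1 and 24.2 CPM in WT bleomycin mice 4, 2, 5, 4-B2 and 7. The groups did not overlap, and the lowest treated mouse was well above the highest control. The log2 fold change was 1.75 ± 0.17 (SE), or 3.37-fold (adjusted p = 1.6e-06), the largest among the members. Usp18, which removes ISG15 and dampens the receptor, rose 1.46-fold (adjusted p = 0.00036). Herc6, the mouse ligase for ISG15, was 25.1 ± 1.93 CPM in control and 26.6 ± 4.15 CPM in WT bleomycin (SD, n = 4 and 5), with adjusted p = 0.54.

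Of the 4 IFIT genes, whose proteins bind foreign RNA and stop its translation, 1 passed the test. Ifit1 stood at 13.1, 16.0, 16.5 and 17.5 CPM in the controls and at 36.1, 51.8, 29.4, 33.2 and 38.5 CPM in WT bleomycin mice 4, 2, 5, 4-B2 and 7. The groups did not overlap, with mouse 2 highest, and the rise was 2.40-fold (log2 1.26 ± 0.15 SE, adjusted p = 1.1e-05). Ifit2, Ifit3 and Ifit3b had log2 fold changes of 0.12, 0.24 and -0.31 with adjusted p of 0.35, 0.19 and 0.16. All 3 had groups that overlapped, unlike Ifit1.

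The OAS enzymes make a messenger that activates RNase L when they meet double-stranded RNA, and Eif2ak2 encodes PKR, which then halts translation. All 6 members of this class rose. Oas1a was at 9.81, 6.55, 7.68 and 6.44 CPM in the controls and at 22.4, 28.2, 19.3, 19.6 and 20.9 CPM in the WT bleomycin mice, in the order used above. No treated library came near the controls, and the log2 fold change was 1.53 ± 0.15 (SE), or 2.89-fold (adjusted p = 2.1e-06). Oas2 rose 2.31-fold, Oas3 2.05-fold, Oasl1 1.79-fold, Eif2ak2 1.58-fold and Oasl2 1.51-fold. Oasl1, at 3.12 ± 1.58 CPM in control (SD, n = 4), was the only one of the 6 whose groups overlapped, and its call was lost without control 24, control 26 or WT mouse 2 (adjusted p = 0.072, 0.072 and 0.055).

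Among the membrane-associated factors, 3 of 5 rose. Rsad2 encodes viperin, which makes a chain-terminating nucleotide against viral polymerases. It was at 11.4, 7.33, 6.21 and 7.28 CPM in the controls and at 21.2, 30.0, 19.0, 19.1 and 17.8 CPM in the WT bleomycin mice. Mouse 2 stood apart from the other treated mice, yet all were above every control, and the rise was 2.65-fold (log2 1.41 ± 0.20 SE, adjusted p = 6e-05). Ifitm3, which blocks virus entry at endosomes, rose 1.36-fold, and Bst2, the tether of budding virus, rose 1.28-fold. Cmpk2, the neighbour of Rsad2 and a nucleotide kinase, was at 26.3 ± 5.49 CPM in control and 26.1 ± 5.54 CPM in WT bleomycin (SD, n = 4 and 5; adjusted p = 0.96), and Samd9l had adjusted p = 0.70.

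Of the cytosolic sensors, Zbp1 and Dhx58 rose and Ifih1 did not pass the test. Zbp1 senses Z-form nucleic acid and can start necroptosis. It was at 10.3, 6.91, 9.41 and 7.28 CPM in the controls and at 20.2, 26.3, 19.6, 15.3 and 21.97 CPM in the WT bleomycin mice, with every treated mouse higher. The rise was 2.44-fold (log2 1.29 ± 0.20 SE, adjusted p = 9.8e-05). Dhx58, which encodes LGP2, rose 1.59-fold, whereas Ifih1, which encodes MDA5, had a log2 fold change of -0.01 with a 95% interval from -0.20 to 0.17.

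In the class of STAT2 and its cofactors, 2 of 6 rose, by small amounts. Parp9, a partner of the ubiquitin ligase DTX3L, was at 47.1, 44.4, 43.9 and 40.7 CPM in the controls and at 61.2, 73.5, 51.6, 48.2 and 55.8 CPM in the WT bleomycin mice. The lowest treated mouse was just above the highest control, and the rise was 1.32-fold (log2 0.40 ± 0.11 SE, adjusted p = 0.0084). Rtp4 was 1.28-fold higher (adjusted p = 0.046), a call made in only 11 of the 26 alternative fits described below. It was lost on leaving out any of control 21, 24 or 26, any WT bleomycin mouse but 5, or CB1R KO mouse 8 or 11. Some other normalizations, filters and models also lost it. Stat2, Parp14, Dtx3l and Trim30a had log2 fold changes between 0.10 and 0.18, none of which passed the test.

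The GBP and IRG GTPases were the only class with calls in both directions. Gbp7 was at 83.3, 76.4, 121 and 87.9 CPM in the controls and at 59.0, 62.5, 50.8, 52.7 and 64.6 CPM in the WT bleomycin mice. All treated mice were lower, and the log2 fold change was -0.67 ± 0.14 (SE; adjusted p = 0.0015). Gbp2 was at 82.6, 72.6, 104.7 and 91.8 CPM in the controls and at 67.0, 80.6, 60.2, 56.1 and 63.4 CPM in the WT bleomycin mice. Only mouse 2 reached the control range, and Gbp2 fell by 0.42 on the log2 scale (± 0.12 SE, adjusted p = 0.010). Gbp3 and Igtp had log2 fold changes of -0.31 each and Irgm1 of 0.31, with adjusted p of 0.086, 0.14 and 0.083.

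Tgtp1 was called higher in the same class, but its reads could not be separated from those of a copy. It was at 14.0, 11.4, 18.3 and 9.73 CPM in the controls and at 40.9, 35.5, 22.7, 44.4 and 31.5 CPM in the WT bleomycin mice, a log2 fold change of 1.39 ± 0.25 (SE; adjusted p = 0.00034). Its copy Tgtp2, which is no member, moved the other way by -0.64 (adjusted p = 0.010), and 83.2% of the 31-base words of Tgtp1 transcripts also occur in Tgtp2. With both summed, the level was 74.5 ± 15.8 CPM in control and 74.1 ± 14.5 CPM in WT bleomycin (SD, n = 4 and 5), and the log2 fold change was -0.01 ± 0.19 (SE; adjusted p = 0.98). The call for Tgtp1 is therefore uncertain. Oas1a shares 68% of its words with Oas1g, and their sum still rose, by 1.61 ± 0.15 on the log2 scale (adjusted p = 1.7e-06). Ifit3 shares 61.8% with Ifit3b, and their sum had a log2 fold change of 0.14 (adjusted p = 0.45).

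**Figure D2:**
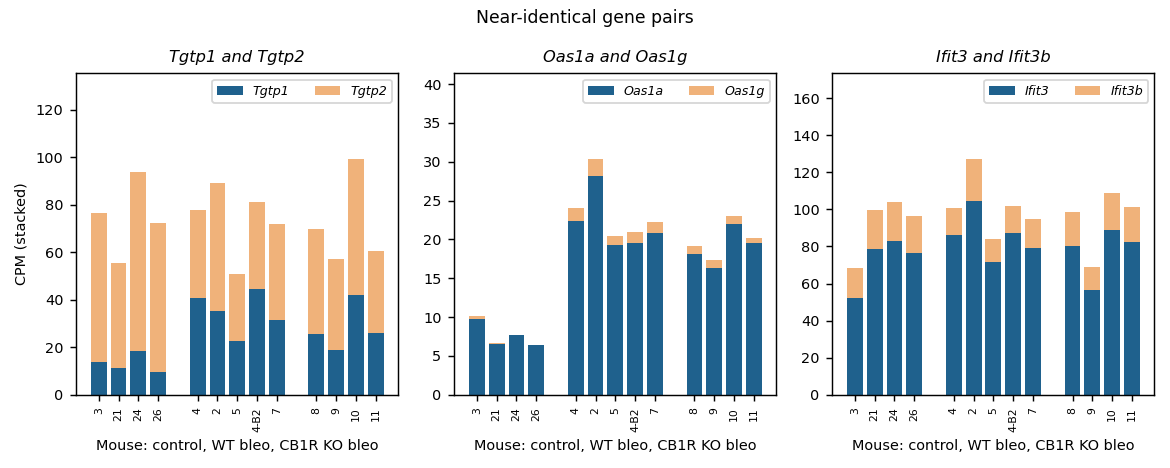
Stacked bars of CPM (vertical axis) in each of the 13 libraries for 3 pairs of near-identical genes, grouped as control, WT bleomycin and CB1R KO bleomycin. The Tgtp1 part grows after bleomycin while the whole Tgtp bar stays in the range 50.8 to 99.2 CPM, whereas the whole Oas1a and Oas1g bar rises.

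Of the remaining induced proteins, 2 of 4 rose. Ifi27, a small mitochondrial and nuclear membrane protein, was at 60.4, 52.6, 54.3 and 62.0 CPM in the controls and at 83.6, 87.4, 81.8, 78.6 and 74.5 CPM in the WT bleomycin mice. Its replicates were tight and did not overlap, and the rise was 1.42-fold (log2 0.50 ± 0.07 SE, adjusted p = 2.7e-05). Ifi44 rose 1.60-fold (adjusted p = 0.0090), with 4 of 5 treated mice above every control. Ifi35 and Xaf1 had log2 fold changes of -0.05 and -0.08 and did not pass the test.

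**Figure D3:**
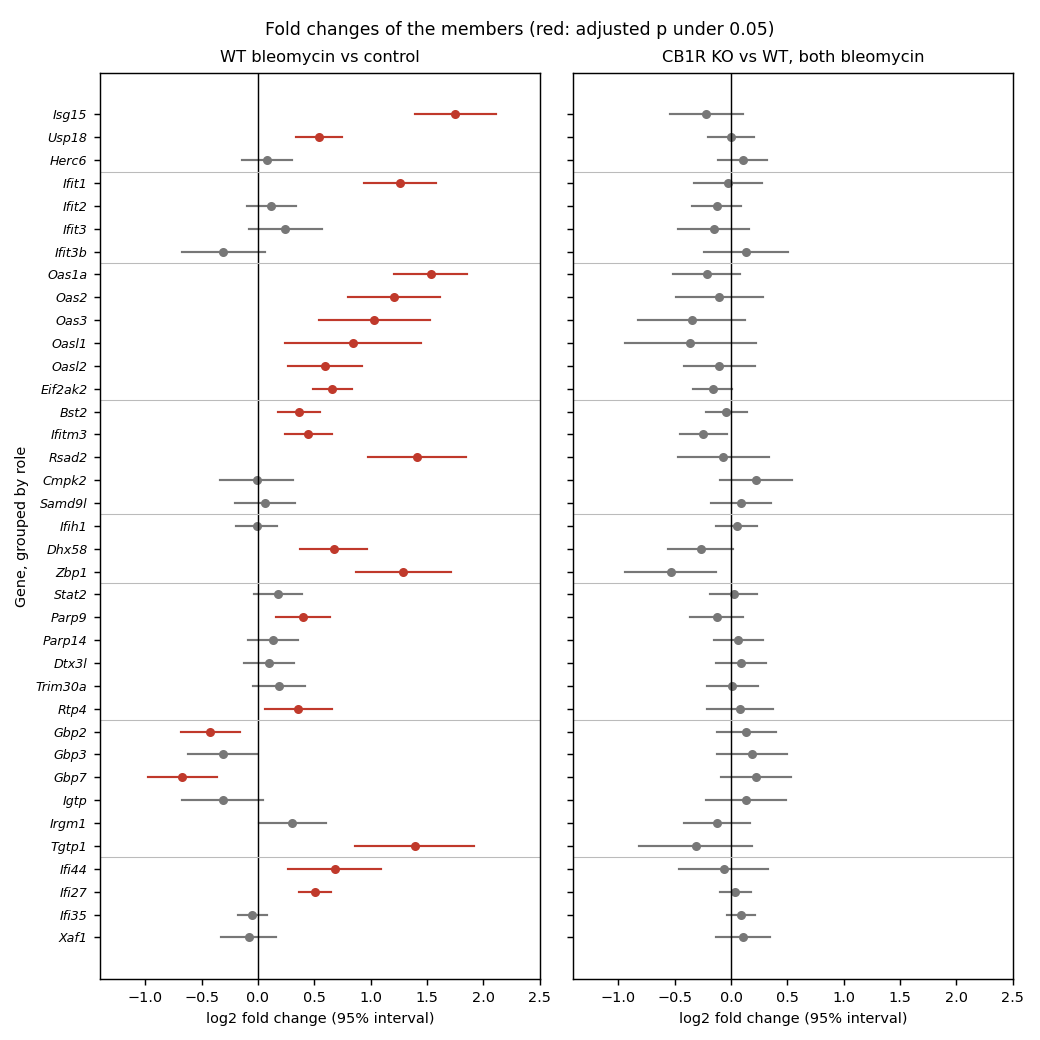
Log2 fold change (horizontal axis) with 95% interval for each of the 37 members (rows, by role), WT bleomycin against control on the left and CB1R KO against WT bleomycin on the right, with red for adjusted p under 0.05. On the left 19 members are red above 0 and 2 below it; on the right none is red and every interval lies within a 2-fold difference.

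The comparison of CB1R KO with WT bleomycin asked whether the receptor deletion changes the members in the injured lung. It shares the WT bleomycin libraries with the comparison above. None of the 37 members passed the test in either direction with edgeR, where 0.359% of all genes were called higher and 0.62% lower, and none passed with DESeq2, where 3.23% of all genes were called. The calls over all genes in this comparison changed with the mouse left out and with the letter case of the labels. There were 150 with all libraries, 653 without CB1R KO mouse 10, and 9, 1 and 3 without CB1R KO mice 8, 9 and 11. Without 1 of the WT bleomycin mice there were 24 to 230, and without 1 of the controls 85 to 177. With letter case as a batch term there were 41, and with lower-case labels alone 6. The CB1R KO labels are all lower case, while each other group holds some with capitals. The cause was not tested. At an unadjusted p under 0.05, 2 members were lower and 0 higher, beside 9.08% and 7.95% of all genes. In 0 members did the 4 CB1R KO libraries lie all above or all below the 5 WT libraries, as 2.5% and 3.1% of all genes did. The median log2 difference was -0.03 over the members, with a median SE of 0.14. The 95% interval lay within a 2-fold difference for all 37 members, and the bounds ran from -0.94 to 0.54 on the log2 scale.

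The 5 members with the lowest p were all lower in the CB1R KO mean. Zbp1 was at 13.3, 10.7, 20.3 and 12.9 CPM in CB1R KO mice 8, 9, 10 and 11, against the 15.3 to 26.3 CPM of the WT bleomycin mice. Mice 8, 9 and 11 lay below every WT mouse and mouse 10 within their range. The log2 difference was -0.53 ± 0.19 (SE; unadjusted p = 0.013, adjusted p = 0.17). Without mouse 10 it was -0.74 with adjusted p = 0.030, in a fit that called 2.53% of all genes lower in place of 0.62%.

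Ifitm3 was at 263, 236, 315 and 224 CPM in CB1R KO mice 8, 9, 10 and 11, and at 273, 331, 279, 334 and 321 CPM in WT bleomycin mice 4, 2, 5, 4-B2 and 7. Again mouse 10 alone was in the WT range. The log2 difference was -0.24 ± 0.10 (SE; adjusted p = 0.21), and without mouse 10 it was -0.35 with adjusted p = 0.034. These 2 of 37 members stand beside that 2.53% of all genes. Whether the calls without mouse 10 are particular to the members was not tested.

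Eif2ak2 was at 50.2, 49.1, 58.3 and 47.6 CPM in the CB1R KO mice and at 55.2, 63.7, 52.5, 58.1 and 57.5 CPM in the WT bleomycin mice, a log2 difference of -0.16 ± 0.08 (SE; adjusted p = 0.31). Dhx58 was at 14.1, 13.9, 18.9 and 15.2 CPM against 18.3, 23.2, 17.6, 16.5 and 18.02 CPM, a log2 difference of -0.27 ± 0.14 (adjusted p = 0.33). For both genes 3 CB1R KO mice were below every WT mouse and mouse 10 was not. Oas3 was at 12.0, 7.24, 12.1 and 9.25 CPM against 12.2, 18.6, 11.2, 10.9 and 11.4 CPM, a log2 difference of -0.35 ± 0.22 (adjusted p = 0.45). Its groups overlapped, with CB1R KO mice 9 and 11 below every WT mouse.

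**Figure D4:**
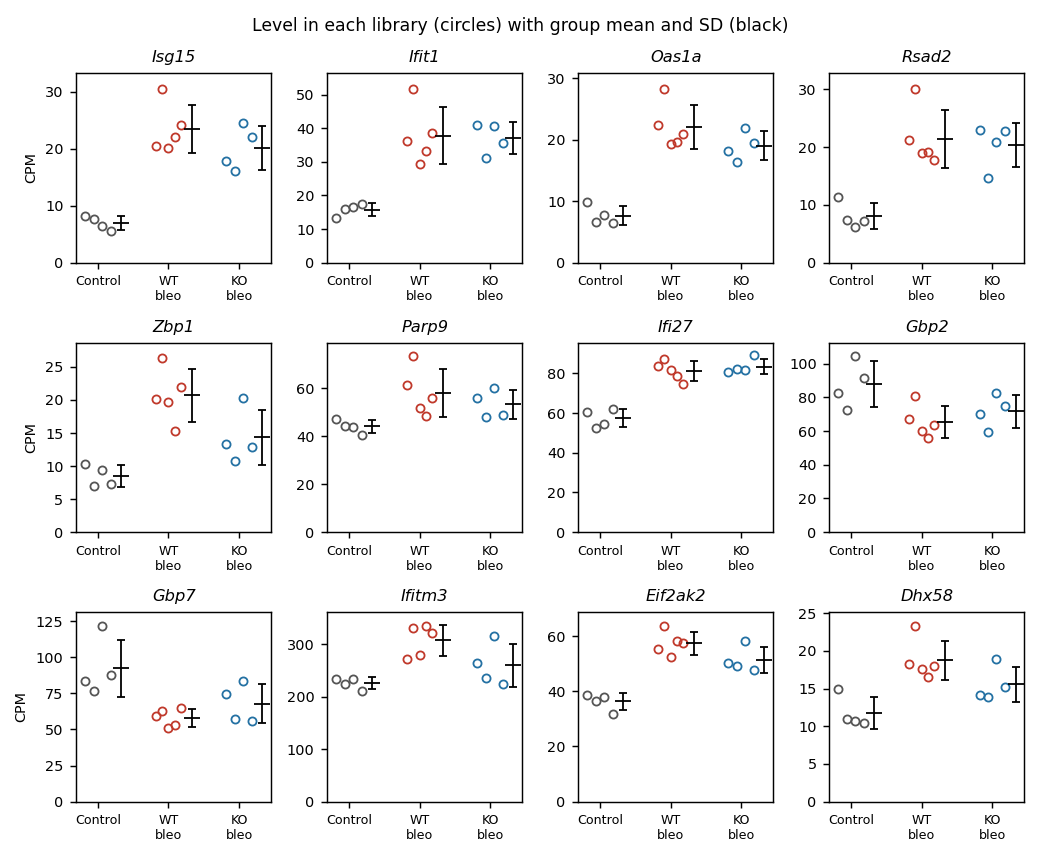
CPM (vertical axes from 0) of 12 members in each library (open circles) with group mean and SD (black). For Isg15, Ifit1, Oas1a and Rsad2 both bleomycin groups sit above the controls and overlap each other, while for Zbp1, Ifitm3, Eif2ak2 and Dhx58 3 of the 4 CB1R KO mice sit below the WT bleomycin mice.

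CB1R KO bleomycin was also set against control, with the controls and the CB1R KO libraries shared with the comparisons above. In it 16 members rose and 1 fell, beside 19% and 16.3% of all genes. The 16 include Tgtp1, whose sum with Tgtp2 had a log2 fold change of -0.06 (adjusted p = 0.85). Isg15 was at 17.8, 16.2, 24.5 and 22.02 CPM in CB1R KO mice 8, 9, 10 and 11, with each mouse above every control, a rise of 2.89-fold (log2 1.53 ± 0.17 SE, adjusted p = 1.8e-05). Ifit1 was at 40.9, 31.1, 40.8 and 35.5 CPM, a rise of 2.35-fold. The values of Rsad2 were 23.0, 14.7, 20.9 and 22.8 CPM, a rise of 2.52-fold. Side by side, Ifitm3 was 1.36-fold higher than control in WT bleomycin and 1.15-fold in CB1R KO bleomycin (adjusted p = 0.13), and Parp9 was 1.32-fold and 1.21-fold (adjusted p = 0.084); neither passed the direct comparison of the bleomycin groups. Gbp7 fell by 0.45 on the log2 scale (adjusted p = 0.033), and this was not called without control 24, or without CB1R KO mouse 9 or 11 (adjusted p = 0.12, 0.092 and 0.11).

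The mice of a group differed from each other over many members together. Averaged over the 37 members, the log2 level above the control mean was 0.43 ± 0.19 in WT bleomycin (SD, n = 5) and 0.39 ± 0.18 in CB1R KO bleomycin (SD, n = 4). The controls ranged from -0.12 to 0.11, the WT bleomycin mice from 0.26 to 0.74 and the CB1R KO mice from 0.18 to 0.60. WT mouse 2 was the highest of its group in 30 of 37 members, and CB1R KO mouse 10 in 28, while CB1R KO mouse 9 was the lowest in 26. These counts describe mice and not independent genes. Among the CB1R KO mice the summed level of 10 macrophage markers was 2186, 1818, 2882 and 2562 CPM in mice 8, 9, 10 and 11, also lowest in 9 and highest in 10. The same held for the fibroblast sum (4700, 4666, 7418 and 7151 CPM) and the plasmacytoid dendritic cell sum (235, 228, 255 and 231 CPM). The summed type II cell markers were 14521 CPM in mouse 10 and 19857 to 22615 CPM in the other 3. Endothelial and type I cell sums were also lowest in mouse 10, at 3116 and 3474 CPM. The other marker lists followed neither pattern. Among the WT bleomycin mice, mouse 2 had the lowest macrophage sum, 2487 CPM beside 2612 to 2807 CPM in the others, and the highest type II sum, 14222 CPM beside 12549 to 13799 CPM.

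On the per-length scale of TPM (scaled to transcript length and to the library), the members spanned a wide range in control lungs. Ifitm3 was highest at 660 ± 45.0 TPM, followed by Bst2 at 163 ± 21.1 and Ifi27 at 114 ± 7.36 TPM (SD, n = 4). Below them came Ifit3 at 65.3 ± 11.6 TPM, and Oas3 was lowest at 2.06 ± 0.83 TPM. Only 3 of the 36 neighbouring pairs in this order did not overlap between control libraries, those from Ifitm3 down to Ifit3. Isg15 stood at rank 19 in control, at 19.4 ± 3.73 TPM, and at rank 5 in both WT bleomycin (66.7 ± 13.1 TPM, n = 5) and CB1R KO bleomycin (57.9 ± 10.5 TPM, n = 4). Gbp7 went from rank 13 in control to rank 26 in WT bleomycin.

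The rest of the pathway was followed with lists of ligands, receptors, transducers, sensors, regulators and further induced genes. None of the 10 interferon ligands in the tables passed the filter. Ifng, the type II ligand, had 1 to 23 counts per library, with the 23 in CB1R KO mouse 11, the deepest library. Ifnb1 had 3 counts in all 13 libraries together. Changes in the ligands were therefore not detectable at this depth. Of 6 receptor genes 2 rose in WT bleomycin, 33.3% beside 25% of all genes. They were Ifngr2 by 1.48-fold (adjusted p = 9e-06) and Ifnar1 by 1.16-fold (adjusted p = 0.036).

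Of 8 transducers 2 rose and 2 fell in WT bleomycin, 25% and 25%, close to the 25% and 23.9% of all genes. Irf7, which amplifies type I interferon production, was at 16.2, 17.4, 11.4 and 16.0 CPM in the controls and at 34.7, 41.0, 30.9, 31.8 and 34.7 CPM in the WT bleomycin mice. It rose 2.27-fold without overlap (adjusted p = 3.9e-05), and Jak2 rose 1.24-fold. Irf1, a target and mediator of interferon-gamma, fell by 0.40 on the log2 scale (adjusted p = 0.00097). Irf9, the partner of STAT2, was named after its values were seen and had adjusted p = 0.16, beside 0.15 for Stat2.

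Of 13 sensors and adaptors 6 rose and 1 fell, 46.2% and 7.69% beside 25% and 23.9% of all genes. Sting1, the adaptor of cytosolic DNA sensing, rose 2.91-fold (adjusted p = 3.3e-06), Ikbke 1.56-fold and Myd88 1.53-fold. Of 7 negative regulators 4 rose and 1 fell, 57.1% and 14.3%. Among them Ptpn2 rose 1.51-fold, and Pias1 fell by 0.46 on the log2 scale. The pathway lists held 6, 8, 13, 7, 18 and 45 tested genes. Between the bleomycin groups 0.359% of all genes were called higher and 0.62% lower. Socs3, an inhibitor of JAK kinases that also answers to interleukin-6, was the only gene of the pathway lists called there. It was at 54.5, 44.2, 39.2 and 37.8 CPM in the controls, at 287, 188, 314, 364 and 203 CPM in the WT bleomycin mice and at 137, 108, 161 and 122 CPM in the CB1R KO mice. The 3 groups did not overlap, and the log2 difference was 2.63 ± 0.20 (SE) for WT bleomycin against control (adjusted p = 2.5e-07) and -1.04 ± 0.18 for CB1R KO against WT (adjusted p = 0.023). Whether this last call holds with a mouse left out was not tested. Sting1, Myd88 and Irf7 were named for a low p as they rose in these WT libraries, a choice that favours negative differences from them. In CB1R KO against WT bleomycin they had log2 differences of -0.49, -0.27 and -0.34, none called (adjusted p = 0.13, 0.15 and 0.29). Of the 13 sensors and adaptors, 7 had positive and 6 negative log2 differences there. Of the 8 transducers, 6 were positive and 2 negative.

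Of 18 interferon-gamma induced genes outside the members, a list that shares Irf1 and Socs1 with those above, 5 rose and 4 fell. These are 27.8% and 22.2%, close to the 25% and 23.9% of all genes. The chemokines Cxcl10 and Cxcl9, which draw T cells, rose 12.1-fold and 9.13-fold (adjusted p = 3e-07 and 1.8e-05), and the IRG GTPase Iigp1 rose 2.02-fold. Of 45 other induced genes tested 16 rose and 10 fell, 35.6% and 22.2%. Lgals3bp rose 2.12-fold, Ifi211 4.11-fold and Slfn9 3.24-fold. In this list none was called between the bleomycin groups. The background shares for these counts are those given above for WT bleomycin against control.

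**Figure D5:**
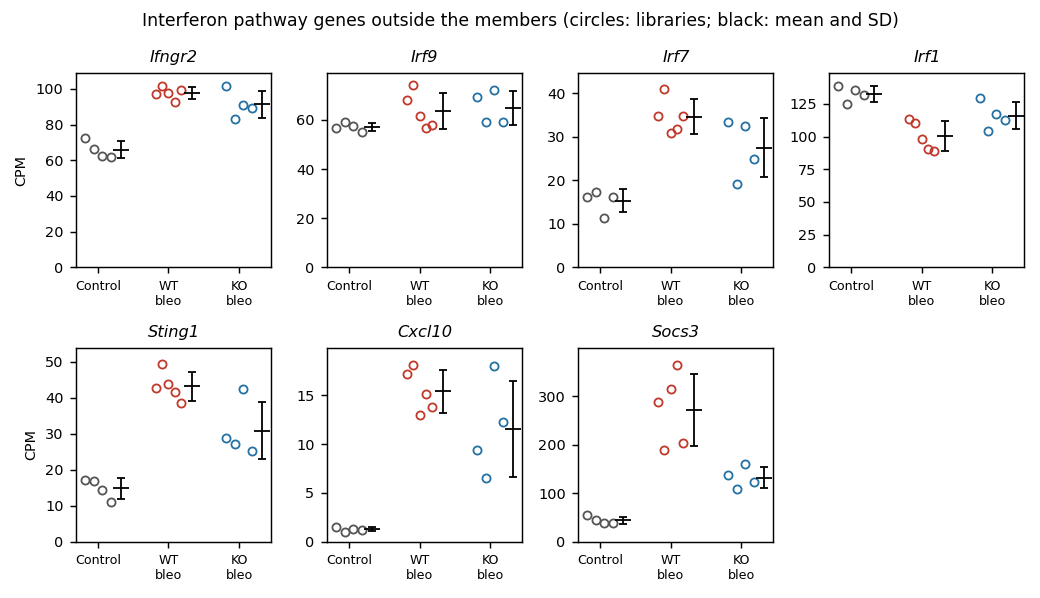
CPM (vertical axes from 0) of 7 pathway genes outside the members in each library (open circles) with group mean and SD (black). Irf7, Sting1, Cxcl10 and Ifngr2 are higher in both bleomycin groups than in control, Irf1 is lower in WT bleomycin, and Socs3 is lower in CB1R KO than in WT bleomycin in every mouse.

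Markers of several cell types moved between the same groups as the members. Their counts stand beside the 25% of all genes that rose and the 23.9% that fell in WT bleomycin. Between the bleomycin groups, 0.359% of all genes were called higher in CB1R KO and 0.62% lower. Of 10 markers of monocyte-derived and interstitial macrophages 9 rose in WT bleomycin, and their summed level was 744 to 869 CPM in control, 2487 to 2807 in WT bleomycin and 1818 to 2882 in CB1R KO bleomycin. Of 12 T and NK cell markers 8 fell (116 to 164, 58.3 to 84.6 and 92.6 to 96.7 CPM in the same order), and 3 were called higher in CB1R KO than in WT bleomycin. Of 7 plasmacytoid dendritic cell markers 2 fell, at summed levels of 219 to 257, 228 to 247 and 228 to 255 CPM. Of 9 endothelial markers 8 fell (4367 to 5044, 2726 to 3199 and 3116 to 3579 CPM), and 1 was called higher in CB1R KO than in WT bleomycin. Of 7 airway club and ciliated cell markers 3 fell (18497 to 21482, 8514 to 13403 and 8940 to 10227 CPM). All 5 red blood cell markers fell (5451 to 6810, 2430 to 3288 and 2549 to 4937 CPM), and of 9 alveolar macrophage markers 4 fell and 1 rose. Of 8 neutrophil markers 6 fell and 1 rose, and their sum was 715 and 636 CPM in controls 3 and 26 but 187 and 163 CPM in controls 21 and 24, level with the 169 to 254 CPM of WT bleomycin. Of 8 type II cell markers 5 fell and 1 rose in WT bleomycin, and 3 were called higher in CB1R KO than in WT bleomycin. Of 8 fibroblast markers 4 rose and 1 fell, and of 7 B and plasma cell markers 1 rose and 5 fell. No marker was at 0 in all libraries, and Klk1 and Lep were at 0 in some. The part of these cell types in the changes of the members was not tested.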

How the data were processed

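RNA sequencing was analysed for 13 lung libraries, 1 per mouse. Per the paper and the labels, poly(A) libraries were sequenced in pairs on a HiSeq, and the authors quantified them with kallisto (version not given in the sources used here) on the Ensembl mouse reference (GRCm39). The authors deposited estimated counts and TPM, summed per gene over protein-coding transcripts. Per-sample files repeat these values. Among the TPM columns, 1 matched no sample and was not used.

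Estimated counts were rounded and analysed with edgeR 4.0.16 in R 4.3.3, with filterByExpr, TMM normalization, 1 quasi-likelihood fit over 3 groups and Benjamini-Hochberg adjustment over 15315 genes at 0.05. SE is the log2 fold change divided by the root of F. CPM uses TMM-scaled library sizes. Shared sequence was counted as 31-base words in GENCODE transcripts. Promoter sequences came from RefSeq GRCm38.p6, a different build from that of the authors, and no coordinates were carried between builds. The fit was tested on simulated data.

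Members and gene lists were chosen with earlier results of these data known. Values in every library were given for the member with the lowest p of each role class and those called in a class with calls in both directions (WT bleomycin against control), and for the 5 members with the lowest p between the bleomycin groups. In the pathway lists, up to 3 called genes with the lowest p and any called between the bleomycin groups were named. The labels define no batches, although 1 WT bleomycin title ends in B2, whose meaning is not given, beside another mouse numbered 4. P-values set the difference between groups against the spread between these mice, estimated over all 3 groups. Depth was 14615904 to 16662580 counts in 12 libraries and 53463884 in 1. The alternatives were other normalizations, filters, DESeq2 1.42.0, limma 3.58.1 on log2 TPM with pseudocounts of 1 and 0.1, fits on 2 groups, the letter case of the labels as a batch term or a selection, thinning of the deepest library, and each mouse left out. Summing near-identical genes was added after the data were seen.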

Additional observations from a re-analysis of the deposited data

Results flagged for a closer look

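Of 48 groups of values examined for a mouse far from the rest, 5 were set apart, where chance gives about 1 in 20. WT bleomycin mouse 2 was far above the other 4 mice in Rsad2 (30.0 CPM beside 17.8 to 21.2 CPM), Dhx58 (23.2 CPM beside 16.5 to 18.3 CPM) and Oas3 (18.6 CPM beside 10.9 to 12.2 CPM). Control 3 was far above the other controls in Dhx58 (15.0 CPM beside 10.4 to 11.0 CPM) and Oas3 (9.51 CPM beside 4.93 to 5.61 CPM). Without WT mouse 2, 17 members were called higher than control and 4 lower. The cause was not tested.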

How the results depend on the processing

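Of the 21 calls in WT bleomycin against control, 17 were made in the same direction under all 26 alternatives, and the exceptions were Oasl1, Rtp4, Gbp2 and Tgtp1. The number called higher was 17 to 20 with a mouse left out and 17 to 20 otherwise; the number called lower was 2 to 4 with a mouse left out (4 without WT mouse 2, which added Ifit3b and Gbp3) and 1 with lower-case labels alone, where Gbp2 lost its call (log2 -0.32, adjusted p = 0.13). With near-identical copies summed, an alternative chosen after seeing the data, the call for Tgtp1 was lost. Tgtp1 and Tgtp2 together had a log2 fold change of -0.0070 ± 0.19 (SE; adjusted p = 0.98). In CB1R KO against WT bleomycin, 0 members were called under every alternative except without CB1R KO mouse 10. In that fit 2 members were lower, beside 2.53% of all genes. The range with a mouse left out was therefore 0 to 2 lower and 0 to 0 higher, where calls over all genes ranged from 1 to 653. The member median there ran from -0.08 to 0.08 and changed sign. In CB1R KO bleomycin against control, 11 to 17 were called higher with a mouse left out and 10 with lower-case labels alone; 0 to 2 were called lower with a mouse left out (2 without control 21), and 0 with lower-case labels alone, with limma at a pseudocount of 1 or 0.1 and with edgeR on the 2 groups. Fewer libraries entered the fit with lower-case labels alone; other causes were not tested. No paired analysis was made, because each library is 1 mouse and the labels give no pairing of mice between groups. Precision was limited by 4 or 5 mice a group and, for ligands, by depth.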
